A study of Caenorhabditis elegans with 2 samples.

Results

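The chaperone genes described here were the 65 protein-coding genes, of 19973 on the nuclear chromosomes, whose symbol in the Ensembl annotation of WBcel235 begins with hsp-, dnj-, cct- or pfd-. They comprise 22 heat shock protein (HSP) genes, 29 genes for J-domain proteins, 8 genes for subunits of the cytosolic chaperonin CCT and 6 genes for subunits of prefoldin. Ensembl gives the symbols hsp-16.1 and hsp-16.48 to 2 genes each, and the second copies are called hsp-16.11 and hsp-16.49 here, as RefSeq names them. The rule reads names alone and no signal value.

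Binding of UNC-62, the worm's homeodomain protein related to vertebrate Meis and fly Homothorax, was mapped by chromatin immunoprecipitation and sequencing (ChIP-seq) in whole Caenorhabditis elegans. All worms belonged to 1 group with 2 biological replicates: young adults of 4 days, males and females pooled, as the labels put it, genotype unc119(ed3); wgIs600 (strain OP600). The wgIs600 transgene joins unc-62 to a TY1 EGFP FLAG tag and also holds unc119, so the values describe a tagged protein made from a transgene. The labels name unc-62 as the antibody and elsewhere an eGFP fusion as the target. There was no second condition, so the comparisons are between genes within lists of peaks, and none of them is tested: genes and peaks are not replicates of a condition. Whole animals were used, so the tissue in which a site was bound is not resolved.

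Chaperones help proteins to fold and keep them from aggregating. HSP70 and HSP90 proteins do so in cycles of ATP hydrolysis, J-domain proteins deliver substrates to HSP70, HSP110 exchanges its nucleotide, and prefoldin hands new actin and tubulin chains to CCT, which closes around them. Many of these genes are expressed at all times, whereas the hsp-16 genes and hsp-70 are nearly silent until heat activates the transcription factor HSF-1, and other members respond to unfolded protein in the endoplasmic reticulum (ER) or the mitochondria.

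The 4 deposited lists on the ce11 build were used, each giving per peak a summit and a signal, the strength assigned by the authors' peak caller. The strictest, cut by the irreproducible discovery rate (IDR) between replicates, had 843 peaks, with signal from 31.2 to 514. The relaxed lists, which include background by design, held 19023 peaks for the pooled reads (signal from 8.57), 30000 for replicate 1 (from 3.19) and 28092 for replicate 2 (from 4.75). Signal is compared within a list, since the lists are not stated to share a scale. A promoter summit is one from 1000 bp upstream to 200 bp downstream of a protein-coding transcript start of the gene, and an intronic one lies in an intron outside that window. Read depth is unknown.

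With every summit counted for each gene whose window held it, chaperone genes carried promoter summits more often than protein-coding genes at large. In the pooled list 36 members had one, of which 19 were among the 26 constitutive members and none among the 7 heat-inducible ones. Of the latter, hsp-16.1, hsp-16.11, hsp-16.48 and hsp-16.49 lie in an inverted repeat, where absence of summits cannot be read as absence of binding. Only hsp-70, hsp-16.2 and hsp-16.41 lie outside it. With each summit given to the nearest start alone, the share of members was close to that of all genes. Of the 26 constitutive members 9 then kept a pooled one, beside 28.2% of all genes. In the pooled list 36 of the 65 members (55.4%) had a promoter summit against a background of 33.2% of all protein-coding genes, and 27 (41.5%) had one in both replicate lists against 24.6%. Each replicate list gave 40 members (61.5%), against 42.9% in replicate 1 and 41.8% in replicate 2. With a q-value of at most 0.01 required in the pooled list, 13 members (20%) remained against 5.79%. In the IDR-thresholded list 5 members (7.69%) had a promoter summit against 2.43%, namely hsp-3, cct-7, dnj-14, hsp-90 and hsp-110. These counts depend on how a summit between 2 genes is assigned. The strongest promoter summit lay in the window of another gene too for 19 of the 36 members (52.8%) and for 28.0% of the 6604 other genes with a pooled promoter summit. When each summit went to the nearest start alone, 20 members (30.8%) kept one in the pooled list against 28.2% of all genes, and 1 (1.54%), hsp-3, kept one in the IDR-thresholded list against 2.02%. Whether the shared summits serve the chaperone, its neighbour or both was not tested.

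**Figure D1:**
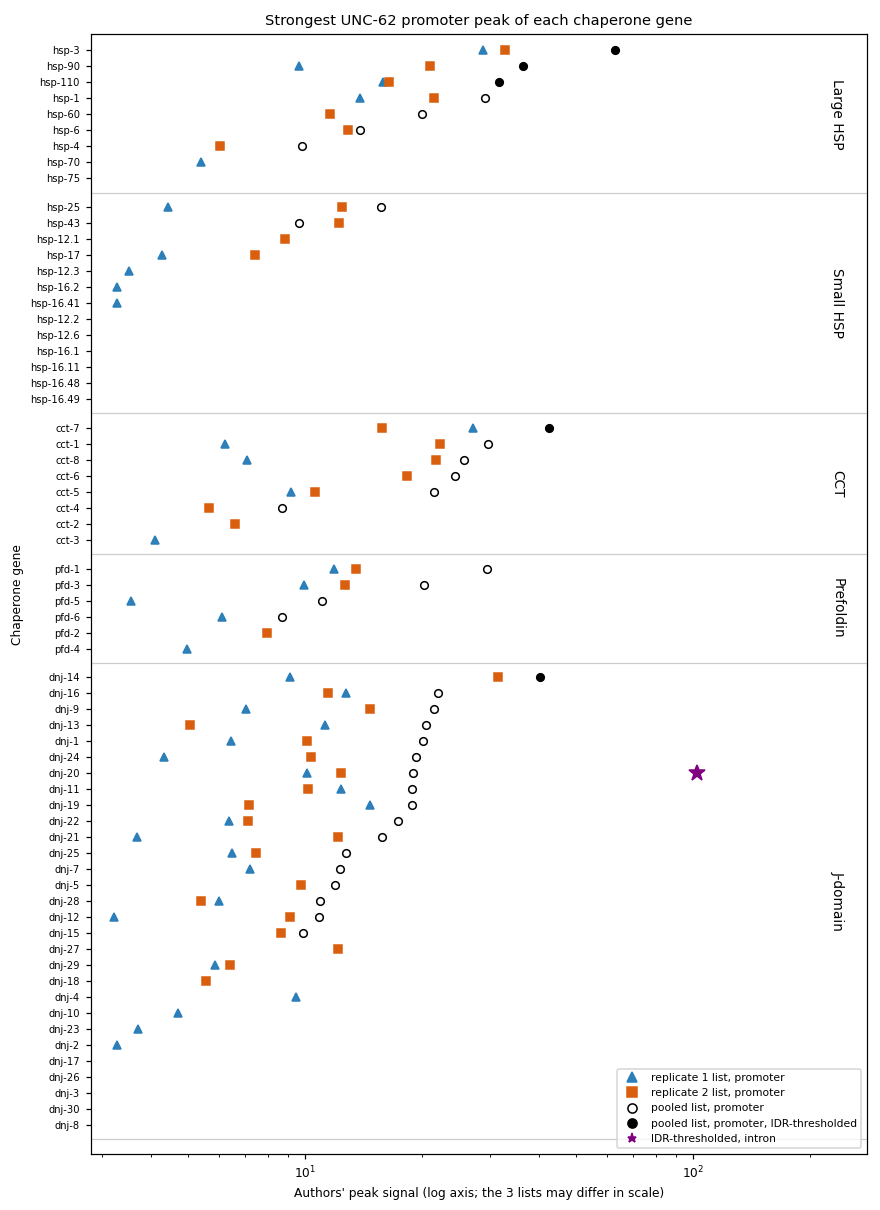
Signal of the strongest promoter peak of each of the 65 chaperone genes (rows, by family) in the replicate 1, replicate 2 and pooled lists, on a log axis; a row with no symbol has no promoter summit in these lists. The 5 filled circles are the IDR-thresholded promoter peaks, from 31.5 at hsp-110 to 62.8 at hsp-3, and the star is the intronic peak of dnj-20 at 102.

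Where members had a summit, its signal was higher in the median than at other genes, and its median distance from the start was similar. The median signal of the strongest pooled promoter peak was 19.1 over the 36 members (range 8.68 to 62.8) and 12.5 over the other genes with one, and 26 of the 36 members were above that second value. These medians count a summit for every gene whose window held it, and were not recomputed with the nearest start alone. With negative values upstream, the median distance was -303.5 bp for members and -287 bp for other genes in the pooled list, -265 and -313 bp in replicate 1 and -314 and -309 bp in replicate 2. Of the 36 summits, 27 (75%) lay 0 to 500 bp upstream of the start, against 56.7% for the other genes, and 34 (94.4%) lay upstream at all, against 87.6%. In the replicate lists the median was 6.38 over members and 5.27 over other genes in replicate 1, and 11.02 and 7.75 in replicate 2. Over the 27 members with a promoter summit in both replicate lists the signals had a Spearman's rho of 0.375, and over all 4912 such genes one of 0.467. These points are genes that share the same libraries, and the strongest summits need not be the same site. Replicate 2 had the larger number at 21 of the 27 members (77.8%) and at 81.9% of the 4885 other genes, on lists not stated to share a scale.

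**Figure D2:**
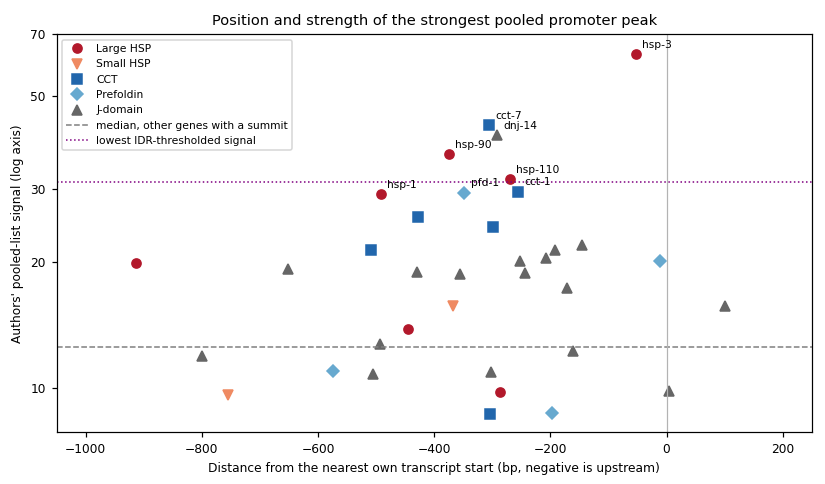
Signal of the strongest pooled promoter peak of the 36 members that had one (log axis) against its distance from the nearest own transcript start, with symbols by family. The dashed line is the median of other genes (12.5) and the dotted line the lowest IDR-thresholded signal (31.2); hsp-3 is the highest, at 62.8 and 52 bp upstream.

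The HSP70 and HSP90 class held the strongest promoter peak of any member. hsp-3 encodes a constitutive BiP, the HSP70 of the ER lumen, and had a peak at chrX:6092016-6092335 with a signal of 62.8, at the percentile 99.2 of all genes with a pooled promoter peak. Its summit lay 52 bp upstream of the start, outside any other gene's window. The replicates gave 28.6 and 32.6, at ranks 68 and 262 of their lists, with summits within 9 bp of the pooled one. This was the only IDR-thresholded promoter summit of a member with that member's start nearest to it.

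hsp-90, the cytosolic HSP90 gene, had a peak at chrV:14685625-14685944 with a signal of 36.3 and replicate values of 9.61 and 21.01. The gene has 2 annotated starts, and the summit lay 375 bp upstream of the second and 867 bp downstream of the first, in an intron of the longer transcript. It also lay 300 bp upstream of the divergent gene C47E8.4. hsp-110 encodes the nucleotide exchange factor HSP110 and had a peak at chrIII:8447018-8447337 with a signal of 31.5, close to the bottom of the IDR-thresholded list (31.2). Its replicate values were 15.8 (rank 434) and 16.44 (rank 1490). The summit lay 269 bp upstream of hsp-110 and 175 bp upstream of rpn-3, a proteasome subunit gene on the other strand.

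hsp-1 encodes the constitutive cytosolic HSC70 and was just below the threshold, with a pooled signal of 29.1. It nevertheless ranked among the 843 strongest peaks of each replicate, with 13.8 (rank 646) in replicate 1 and 21.5 (rank 803) in replicate 2. The only other member with a promoter summit at that rank in both replicates was hsp-3. The replicate summits at hsp-1 were apart, 356 and 509 bp upstream, so the values were not taken at the same position. The remaining constitutive gene of this class, hsp-75, which encodes a mitochondrial HSP90, had no promoter summit in any list.

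CCT, the chaperonin that folds actin and tubulin, had a promoter summit in the pooled list at 6 of its 8 subunit genes (background 33.2%). Counts by family with the nearest start alone were not made. cct-7 led with an IDR-thresholded peak at chrV:1871781-1872100 of signal 42.5, and replicate values of 27.1 and 15.8. It stood at rank 81 of the replicate 1 list and at rank 1637 of the replicate 2 list. The summit lay 305 bp upstream of cct-7 and 134 bp upstream of the divergent gene T10B5.4. cct-1 (29.5), cct-8 (25.7), cct-6 (24.3) and cct-5 (21.4) followed in the pooled list. In replicate 1, cct-1 and cct-8 had 6.19 and 7.06, at percentiles 64.0 and 73.6 of all genes with a promoter peak there. They were among the 843 strongest in replicate 2 (22.2 and 21.7). cct-6 had a promoter summit in replicate 2 alone of the replicate lists (18.3). cct-4 had a pooled signal of 8.68, near the floor of that list, and cct-2 and cct-3 had no pooled promoter summit. Subunits of this one complex thus ranged from no pooled summit to an IDR-thresholded peak.

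Of the 6 prefoldin genes, 4 had a pooled promoter summit (background 33.2%) and none passed the IDR threshold at its promoter (background 2.43%). pfd-1 had a signal of 29.3, with 11.8 and 13.5 in the replicates and summits 345 and 344 bp upstream. pfd-3 had 20.2, with 9.90 and 12.7, and its pooled and replicate 2 summits lay 12 bp upstream of the start and its replicate 1 summit 560 bp upstream. pfd-5 (11.03) and pfd-6 (8.71) were low, and each had a promoter summit in replicate 1 alone. pfd-2 and pfd-4 had a summit in 1 replicate list each and none in the pooled list.

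Among the 29 J-domain genes, 17 had a pooled promoter summit (58.6%, background 33.2%) and 15 had one in both replicate lists (51.7%, background 24.6%). dnj-14 encodes the cysteine string protein, a co-chaperone of synaptic vesicles, and was the only one past the IDR threshold at its promoter. Its peak at chrX:4711880-4712199 had a signal of 40.4. Replicate 2 gave 31.5 (rank 286) and replicate 1 gave 9.16 (rank 2203). The summit lay 292 bp upstream of dnj-14 and 239 bp upstream of glit-1, and within the annotated noncoding RNA genes DL2.1 and DL2.2. The next were dnj-16 (22.0), dnj-9 (21.4) and dnj-13 (20.45), the last a cytosolic co-chaperone of HSP70. dnj-13 had 11.3 in replicate 1 (rank 1189) and 5.05 in replicate 2 (rank 25600), close to the floor of that list. dnj-16 had 12.7 and 11.4, and dnj-9 had 7.04 and 14.6. dnj-3, dnj-8, dnj-17, dnj-26 and dnj-30 had no promoter summit in the pooled or replicate lists.

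The strongest peak at any chaperone gene lay inside a gene. dnj-20, the worm counterpart of the human ER co-chaperone ERdj3, held an IDR-thresholded peak at chrII:9622084-9622403 of signal 102, rank 14 among nuclear peaks of that list. It ranked 3 of the 126 genes with an intronic IDR-thresholded summit, whose median was 41.1. Replicate 1 gave 32.4 (rank 48) and replicate 2 gave 71.1 (rank 25), with summits 1 and 8 bp from the pooled one. The summit lay in intron 6 of 7 of the longer transcript, an intron of 3725 bp. It was 1932 bp downstream of that transcript's start and 3074 bp upstream of the start of the shorter transcript, so it fell in neither promoter window. The same intron holds the snoRNA gene T15H9.8 on the same strand, whose near end was 11 bp beyond the edge of the peak. The pooled list held 5 further summits within dnj-20, with signal from 14.3 to 27.6, all downstream of the strong one. The strongest of these lay 1451 bp downstream, and the nearest replicate summits had 7.10 (replicate 1, 1490 bp downstream) and 22.1 (replicate 2, 1450 bp downstream).

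**Figure D3:**
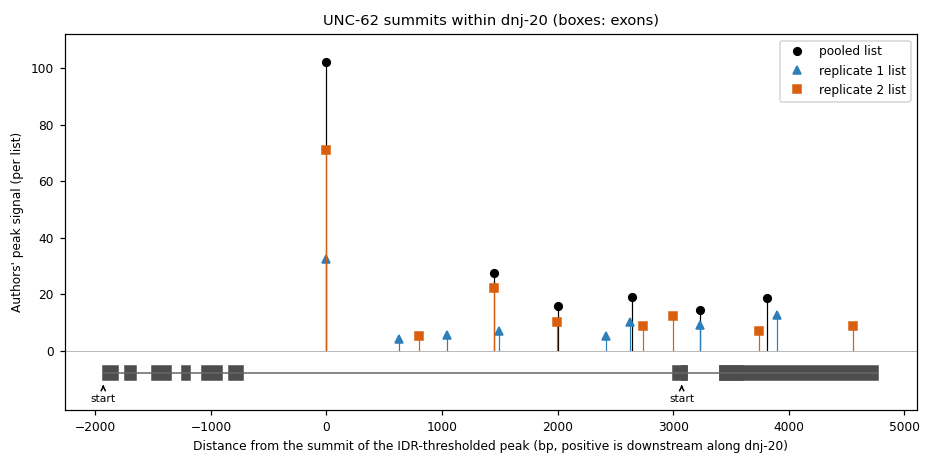
Signal of every pooled, replicate 1 and replicate 2 summit within dnj-20, by distance from the summit of the IDR-thresholded peak along the gene, with exons as boxes and both transcript starts marked. The peak at 0 reached 102 in the pooled list, 32.4 in replicate 1 and 71.1 in replicate 2, and the other pooled summits were at 27.6 or below.

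dnj-20 was the only member with an intronic IDR-thresholded summit (1.54%, background 0.631%), and with hsp-90 one of 2 with a summit anywhere in the gene body (3.08%, background 1.17%). In the relaxed lists the members' introns were like those of other genes. The pooled list gave 11 members (16.9%, background 17%), replicate 1 gave 16 (24.6%, background 24.6%) and replicate 2 gave 15 (23.1%, background 22.9%). A pooled summit in the gene body was found at 24 members (36.9%, background 31.8%). After dnj-20 the highest intronic values in the pooled list were 23.4 at dnj-9, 19.8 at dnj-24 and 19.2 at cct-5. The intronic summit of dnj-9 reached 21.2 in replicate 2, among the 843 strongest there, and 6.33 in replicate 1.

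The sequence at these summits is shown to set the binding sites beside the words searched for in them. Each sequence is 101 bp of WBcel235 (ce11) centred on the summit and written 5′ to 3′ on the strand of the chaperone gene, with capitals marking a match on either strand. The words were TGACAG (the Meis and Homothorax type), TGATTGAC (Pbx with Meis), GAANNTTC and TTCNNGAA (paired units of a heat shock element, the site of HSF-1, which can overlap each other). The forkhead type GTAAACA was searched as well, and last the word of GATA factors, which reads TGATAA. cct-1 is added to the 6 IDR-thresholded peaks because its summit holds TGACAG.
dnj-20 (chrII:9622194-9622294, minus strand): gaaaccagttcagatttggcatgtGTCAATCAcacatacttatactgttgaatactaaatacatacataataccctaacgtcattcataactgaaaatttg
hsp-3 (chrX:6092126-6092226, minus strand): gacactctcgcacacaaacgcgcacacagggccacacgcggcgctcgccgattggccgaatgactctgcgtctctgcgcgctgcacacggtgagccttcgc
cct-7 (chrV:1871891-1871991, plus strand): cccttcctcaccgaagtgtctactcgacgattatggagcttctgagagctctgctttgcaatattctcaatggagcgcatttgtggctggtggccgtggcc
dnj-14 (chrX:4711990-4712090, minus strand): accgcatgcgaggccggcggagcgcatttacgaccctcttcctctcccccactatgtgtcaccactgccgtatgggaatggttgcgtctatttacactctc
hsp-90 (chrV:14685735-14685835, plus strand): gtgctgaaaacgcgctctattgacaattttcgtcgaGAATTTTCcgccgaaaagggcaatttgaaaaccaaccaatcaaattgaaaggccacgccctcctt
hsp-110 (chrIII:8447128-8447228, minus strand): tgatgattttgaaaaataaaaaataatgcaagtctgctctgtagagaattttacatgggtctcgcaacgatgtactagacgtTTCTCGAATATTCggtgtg
cct-1 (chrII:8185138-8185238, plus strand): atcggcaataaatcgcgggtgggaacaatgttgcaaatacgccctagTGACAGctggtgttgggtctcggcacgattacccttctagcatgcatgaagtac

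At dnj-20 the capitals spell TGATTGAC on the other strand, beginning 26 bp upstream of the summit. This word stood within 50 bp of the summit in 5.03% of the 815 nuclear IDR-thresholded peaks and in 0.790% of the 18993 nuclear pooled peaks. TGACAG, held by 22.0% of those IDR-thresholded summit windows, was in none of the 6 of members. It was in 3 of the 36 strongest pooled promoter windows of members (8.33%, against 5.75% for other genes), those of cct-1, dnj-5 and dnj-9. In the same windows GAANNTTC was in 6 of the 36 members (16.7%, against 5.97% for other genes), TTCNNGAA in 3 (8.33%, against 5.24%), and TGATAA in 2 (5.56%, against 15.6%). The shares also differed in 300 bp promoters taken without regard to summits. There GAANNTTC was in 43.1% of the 65 members against 18.5% of all genes, TTCNNGAA in 33.8% against 18.9%, and TGATAA in 18.5% against 30.2%. hsp-90 held GAANNTTC 14 bp upstream of its summit, and hsp-110 held both heat shock words, overlapping, 32 to 44 bp downstream. GAANNTTC was in 3.56% and TTCNNGAA in 4.42% of nuclear IDR-thresholded summit windows. hsp-3, cct-7 and dnj-14 held none of the 6 words in these windows. Over the whole width of the peaks there were further heat shock words, GAANNTTC and TTCNNGAA in that of cct-7 (centred 149.5 and 94.5 bp from the summit), TTCNNGAA in that of hsp-90 (52.5 bp) and GAANNTTC in that of dnj-20 (59.5 bp). Over that width 13.9% and 14.8% of nuclear IDR-thresholded peaks held GAANNTTC and TTCNNGAA. A match is a description of the letters and does not show that a factor binds there.

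The heat-inducible members were hsp-70 and the 6 hsp-16 genes, whose small heat shock proteins hold unfolding proteins in solution. None of the 7 had a promoter summit in the pooled or the IDR-thresholded list or in replicate 2. For the hsp-16 genes of the inverted repeat described below, this cannot be read as absence of binding. Outside that repeat the class held only hsp-70, hsp-16.2 and hsp-16.41, too few for a share to be compared. In replicate 1, hsp-70 had a summit of 5.38, 210 bp upstream. hsp-16.2 and hsp-16.41 are a divergent pair and shared a summit of 3.26, beside a list floor of 3.19. Of the 26 members classed as constitutive, 19 (73.1%, background 33.2%) had a pooled promoter summit and 16 (61.5%, background 24.6%) had one in both replicate lists. Their median pooled signal was 21.4, and that of other genes 12.5. With a q-value of at most 0.01 required in the pooled list, 10 of the 26 (38.5%) remained, beside 5.79% of all genes. With the nearest start alone 9 of the 26 constitutive members had a pooled promoter summit, beside 28.2% of all genes, and 0 of the 7 heat-inducible ones. The classes were set from textbook knowledge, but with earlier results of these data known. The constitutive one holds all CCT and prefoldin genes. Without those 14 genes it had a pooled summit at 9 of 12, beside 33.2% of all genes.

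**Figure D4:**
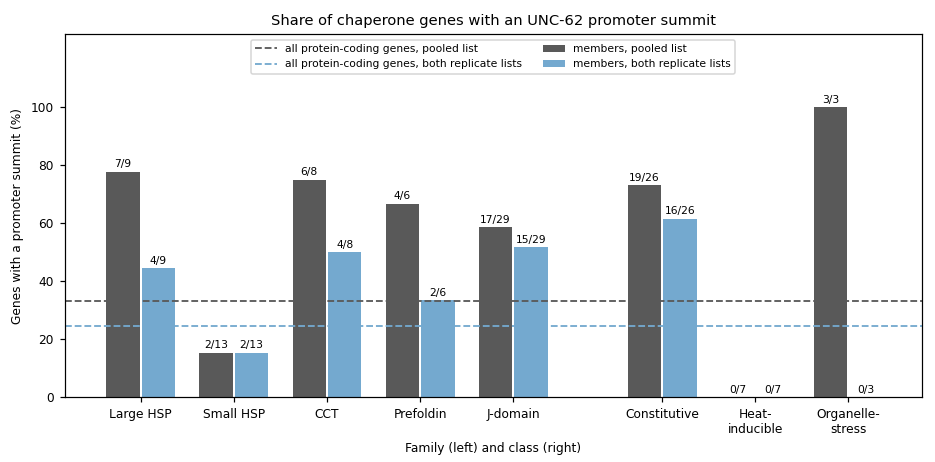
Share of chaperone genes with a promoter summit in the pooled list (dark bars) and in both replicate lists (light bars), by family and by class, with the count over the group size above each bar. Dashed lines are the shares of all protein-coding genes, 33.2% and 24.6%. The heat-inducible class is at 0 in both and the constitutive class at 73.1% and 61.5%. The heat-inducible class includes hsp-16.1, hsp-16.11, hsp-16.48 and hsp-16.49, which lie in an inverted repeat where reads cannot be placed uniquely. Only hsp-70, hsp-16.2 and hsp-16.41 lie outside it.

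At 4 of the hsp-16 genes the absence of summits cannot be read as absence of binding. hsp-16.1 and hsp-16.48 lie in an inverted repeat with hsp-16.49 and hsp-16.11 (chrV:9087293-9090604), and the 2 arms of 1325 bp were identical along their whole length in the reference. Reads from within either arm cannot be placed uniquely, and what the authors did with such reads is not stated in the labels or headers. The repeat does not extend to hsp-16.2 and hsp-16.41, whose longest identical run with it was 42 bp. F08H9.3 and F08H9.4, which RefSeq names hsp-16.20 and hsp-16.21 and which are outside the 65, had no promoter summit in the pooled or replicate lists either.

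The stretch between the starts of hsp-16.2 and hsp-16.41 is shown beside the sequences above, with the same words in capitals. It held no pooled or replicate 2 summit, and the replicate 1 summit of 3.26 lay inside it, at position 1805176. It runs over 220 bp on the plus strand.
hsp-16.2 and hsp-16.41 (chrV:1804958-1805177): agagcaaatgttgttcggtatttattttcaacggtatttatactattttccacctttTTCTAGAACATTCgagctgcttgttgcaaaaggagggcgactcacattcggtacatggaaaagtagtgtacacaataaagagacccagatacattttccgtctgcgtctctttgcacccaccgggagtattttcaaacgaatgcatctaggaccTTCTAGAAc

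It holds TTCNNGAA at 2 places and GAANNTTC at 1, the latter overlapping the first TTCNNGAA, and no TGACAG, TGATTGAC or TGATAA. In the reference promoters (250 bp upstream of the most upstream start to 50 bp downstream) all 7 heat-inducible members held both heat shock words. Either word was in 17 of the 26 constitutive members (65.4%), in 32 of all 65 members (49.2%) and in 32.5% of all protein-coding genes. TGACAG was in 7 of the 65 (10.8%) against 9.66%, and in none of the heat-inducible 7.

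The class of organelle-stress-inducible members was limited to hsp-4, hsp-6 and hsp-60. All 3 had a pooled promoter summit (background 33.2%), and none had one in both replicate lists (background 24.6%). hsp-60 encodes the mitochondrial chaperonin and had a pooled signal of 19.96, 913 bp upstream. hsp-6, the mitochondrial HSP70, had 13.8, and hsp-4, the inducible BiP of the ER, had 9.81, beside a list floor of 8.57. None of these pooled peaks had a q-value of at most 0.01, which is a −log10 q of 2. Their −log10 q-values were 1.85 at hsp-60, 0.511 at hsp-6 and 0.0808 at hsp-4. All 3 had a promoter summit in replicate 2 (11.55, 12.9 and 6.04) and none in replicate 1. The replicate 2 summits lay 726, 393 and 512 bp upstream, against 913, 446 and 286 bp in the pooled list, so they need not be the same site. The pair of BiP genes differed, with 62.8 at hsp-3 and 9.81 at hsp-4 in the pooled list.

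By compartment, pooled promoter summits were at 16 of 27 cytosolic members (59.3%), 4 of 6 ER members and 3 of 5 mitochondrial members, beside 33.2% of all genes. The 27 members with no compartment assigned had one at 13 (48.1%). All 16 cytosolic ones were among the 20 constitutive genes there. The median signal was 22.9 for the cytosol, 15.6 for the ER and 15.7 for the mitochondria, and none of the mitochondrial members passed the IDR threshold. dnj-21, which encodes a subunit of the mitochondrial import motor, was the only mitochondrial member with a promoter summit in both replicate lists (3.68 and 12.13), and those lay 651 bp upstream and 92 bp downstream of the start. In the ER, dnj-27 and dnj-29 had no pooled promoter summit, and dnj-7 had one of 12.29. The other small heat shock genes were mostly low. Of those 7, hsp-25 had 15.7 and hsp-43 had 9.65 in the pooled list, and the rest had no pooled promoter summit.

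Genes that work with chaperones but fall outside the naming rule were read in the same lists. Of 36 listed, 35 matched a symbol, 24 of them (68.6%, background 33.2%) had a pooled promoter summit and 5 (14.3%, background 2.43%) an IDR-thresholded one. With the nearest start alone these were 20 and 4 of the 35, beside 28.2% and 2.02% of all genes. These 5 were unc-23 (63.8), a BAG-domain gene, xbp-1 (51.5), the transcription factor of the ER stress response, bag-1 (49.5), which encodes another HSP70 cofactor, stc-1 (45.7), an HSP70-like gene, and enpl-1 (32.5), the HSP90 of the ER. All 5 genes had a promoter summit in both replicate lists, with 20.5 and 36.7 at xbp-1 and 23.2 and 41.8 at unc-23. These need not be the same site. At stc-1 the strongest summit lay at -962 bp in the pooled list and -943 bp in replicate 2 (negative is upstream). In replicate 1 it lay at -123 bp, with a signal of 8.29. Among the others the highest were daf-16 (29.9), atf-6 (28.9), crt-1 (27.8) and skn-1 (25.7), and daf-16 also had an intronic IDR-thresholded summit of 51.6. The heat shock regulators hsf-1 and hsb-1 and the HSP70 and HSP90 adaptor gene sti-1 had no promoter summit in the pooled or replicate lists. This list was put together from background knowledge, but with earlier results of these data known, so its shares are description only. It does not cover all cofactors.

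The replicates shared 2 members at the top, hsp-1 and hsp-3, and differed in the others. Among the 843 strongest peaks of replicate 1 alone, 6 members had a promoter summit (9.23%, background 2.44%): cct-7, dnj-16, dnj-19, hsp-1, hsp-110 and hsp-3. Among those of replicate 2 alone there were 5 (7.69%, background 2.37%): cct-1, cct-8, dnj-14, hsp-1 and hsp-3. How many of all genes were in both sets was not counted, so the overlap of members has no background beside it. hsp-90 was in neither set, at ranks 1896 and 858, and was in the IDR-thresholded list. Each IDR-thresholded peak of a member had the same rank there as in the pooled list, such as 559 for hsp-90. A place in that list thus does not mean a high rank in each replicate. With 2 replicates and no read counts, the spread of a member's signal cannot be given beyond these pairs of values.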

How the data were processed

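The labels give 1 group of 2 biological replicates of ChIP-seq. Per the README texts deposited with the peak lists, the authors made a replicate list from the reads of that replicate with a control, the pooled list from all reads, and the IDR-thresholded list out of those 3. Which aligner and caller made them is not given in the sources used. The signal and the −log10 q-value of each peak are as deposited by the authors. The ce10 lists were not used, since the annotation (Ensembl release 115) and the RefSeq sequence were of WBcel235, which is ce11. Coordinates are 1-based. Summits were assigned to genes and introns from protein-coding transcripts, a summit counting for every gene whose window held it. Assignment was tested on simulated summits. No p-values were computed. Members, classes, words and lists were chosen with earlier results of these data known. Named genes were members with an IDR-thresholded summit, every inducible member, the 4 strongest per family, the genes outside the naming rule with an IDR-thresholded promoter summit and at most 4 others by pooled signal; further names were added after the values were seen. Alternatives changed the window, the peak threshold, the overlap, the assignment and the replicate used. Computation used Python 3.11.15, numpy 2.4.6, pandas 2.3.3, scipy 1.17.1 and matplotlib 3.10.9.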

Additional observations from a re-analysis of the deposited data

How the results depend on the processing

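Counts of members moved by over 1.5 times with the assignment of summits, the peak threshold and the replicate left out. With the nearest start alone, 1 in place of 5 members had an IDR-thresholded promoter summit, 20 in place of 36 a pooled one, and 9 in place of 19 of the constitutive members a pooled one; the assignments for pooled summits and for genes outside the naming rule were added after seeing the data. With the IDR-thresholded peaks above their median signal, 3 members had a promoter summit and 1 a gene-body summit. Leaving out a replicate (the other list alone) gave 5 to 6 members with a promoter summit among the strongest peaks, 1 to 2 with an intronic one and 2 in both cases with a gene-body one. Against the relaxed lists it gave 40 in both cases for all members, 20 to 21 for constitutive, 0 to 3 for heat-inducible and 0 to 3 for organelle-stress-inducible members, and a median signal of 6.38 to 11.02, on each list's own scale. With windows of 500 bp upstream to 100 bp downstream 28 members (43.1%) had a pooled promoter summit, against 23.2% of all genes, and with the wider of the windows tried upstream 36 did, against 44.6%. In all, 38 of the alternative values were within the limit of 1.5 times (for medians, of the SD between replicates) and 10 were not. The 0 for heat-inducible members stayed 0 with the wider window; narrower windows, the nearest start or fewer genes could not raise it. No paired analysis was possible because there was only 1 group.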
